A study of Mus musculus with 30 samples.

Results

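The beta cell genes followed here were Slc2a2, Abcc8, Kcnj11, Npy and Cltrn. They were found as all probe sets of the array set whose platform annotation gives 1 gene symbol that is a current or older symbol of these genes (Tmem27 for Cltrn). The search gave 7 probe sets for 5 genes, of 36701 probe sets and 15964 named genes in all, and no filter on low values was applied. Abcc8 and Kcnj11 had 2 probe sets each and the others 1. Tissue was dissected from NMRI mouse embryos, always the dorsal pancreas, at embryonic day 12.5 (e12.5), e13.5, e14.5, e15.5 and e16.5, with no mutation or treatment named in the labels. Dorsal pancreata of a litter were pooled, the RNA of a pool was labelled in 2 reactions, and both reactions were read on 3 Affymetrix expression chips of the MG-U74 version 2 set, named A, B and C. The 30 arrays therefore hold 2 arrays per stage and chip, both from the same pool, so that the spread between them is technical and stage and pool cannot be told apart. The ventral pancreas is not part of these samples.

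A beta cell takes up glucose through a facilitative transporter, which in rodents is Glut2, encoded by Slc2a2. Breakdown of glucose raises ATP, which closes the ATP-sensitive potassium (KATP) channel. That channel is built from the pore subunit Kir6.2, encoded by Kcnj11, and the sulfonylurea receptor Sur1, encoded by Abcc8, and its closing depolarises the membrane, opens calcium channels and releases insulin. Npy encodes neuropeptide Y, a peptide of neurons that is also made in fetal islet cells. Cltrn encodes collectrin, a membrane protein of beta cells and kidney tubules that helps amino acid transporters reach the cell surface. In the embryo, Slc2a2 is also known from pancreatic progenitor cells and from hepatocytes.

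On the mouse assembly GRCm38.p6, Slc2a2 lies at chr3:28697903-28728361, Npy at chr6:49822710-49829507 and Cltrn at chrX:164090187-164118859. Kcnj11 (chr7:46097123-46100952) and Abcc8 (chr7:46104523-46180039) are neighbours, with 3570 bases between them. Promoter windows of 300 bases were taken from RefSeq (GRCm38.p6) and matched 3 of the 5 genes, Slc2a2, Npy and Cltrn. The windows of Cltrn (chrX:164089937-164090236, plus strand, the first of 2 entries) and Slc2a2 (chr3:28697653-28697952, plus strand) are shown because these are the genes whose level fell. Capitals mark matches to the motifs searched.
Cltrn: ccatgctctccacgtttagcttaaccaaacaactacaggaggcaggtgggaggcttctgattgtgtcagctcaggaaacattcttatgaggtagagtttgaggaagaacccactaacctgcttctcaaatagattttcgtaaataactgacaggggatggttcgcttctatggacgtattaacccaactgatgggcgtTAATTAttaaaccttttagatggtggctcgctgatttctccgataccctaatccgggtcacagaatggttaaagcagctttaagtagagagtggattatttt
Slc2a2: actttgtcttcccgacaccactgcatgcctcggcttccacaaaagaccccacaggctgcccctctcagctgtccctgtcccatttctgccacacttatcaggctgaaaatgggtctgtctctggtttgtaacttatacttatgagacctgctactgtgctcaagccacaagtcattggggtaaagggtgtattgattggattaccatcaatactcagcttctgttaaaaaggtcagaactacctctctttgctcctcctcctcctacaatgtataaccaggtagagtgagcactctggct
Both strands were searched for the homeodomain core TAATTA, the GC box GGGCGG and the TATA box TATAAA, all of them chosen after the sequences had been read. The Cltrn window held TAATTA, which begins 52 bases before the start of the gene, and 5.29% of 32851 promoter windows held that motif. None of these motifs was found in the Slc2a2 window. The Npy window (chr6:49822460-49822759, plus strand) held GGGCGG 95 bases before its start, a motif found in 35.7% of windows, and no other searched motif. TATAAA was found in 13.6% of all windows. A match is a description of the letters, and no data on binding were used.

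Values are log2 expression values made by the RMA method, 1 per probe set and array. Labelling reactions of the same pool had a correlation of 0.996 to 0.998 across probe sets, which are not independent replicates, and differed by at most 0.881 for any probe set. The tissue carried the pancreatic markers Cpa1 and Ptf1a. Cpa1, an acinar carboxypeptidase and marker of early progenitors, averaged 13.31 at e16.5, against 10.75 at e12.5. Ptf1a, a pancreatic transcription factor, averaged 9.16 at e16.5, against 7.22 at e12.5. These means were all above the median of their chip. Pdx1, another pancreatic transcription factor, lay below the median of its chip at e12.5 and at e16.5. No detection calls came with the values, so a background level is unknown. RNA came from whole tissue, so fewer cells of a type and less RNA per cell cannot be told apart.

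The genes did not follow 1 course over the 5 stages. Npy rose 2.81-fold, Cltrn fell 2.56-fold and Slc2a2 fell 1.75-fold over the 4 days, by a line through the 5 pool means. The pool means themselves spanned less, 2.555-fold for Npy, 2.401-fold for Cltrn and 1.698-fold for Slc2a2. The 4 probe sets of the KATP subunit genes did not pass the test of that line. Thus 1 of 7 probe sets rose and 2 fell in the stage trend (limma, Benjamini-Hochberg adjusted p under 0.05 over all probe sets), where 10.6% of all 36701 probe sets rose and 13.1% fell. The median fitted change was 0.03 over all probe sets. When e16.5 was compared with e12.5 and a change of at least 2-fold was also required, Npy was higher and Cltrn lower at e16.5. In that comparison 1.44% of all probe sets were higher and 3.03% lower. At an adjusted p alone, 3 probe sets of the group were higher and 2 lower at e16.5, where 26.4% of all probe sets were higher and 23.4% lower.

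**Figure D1:**
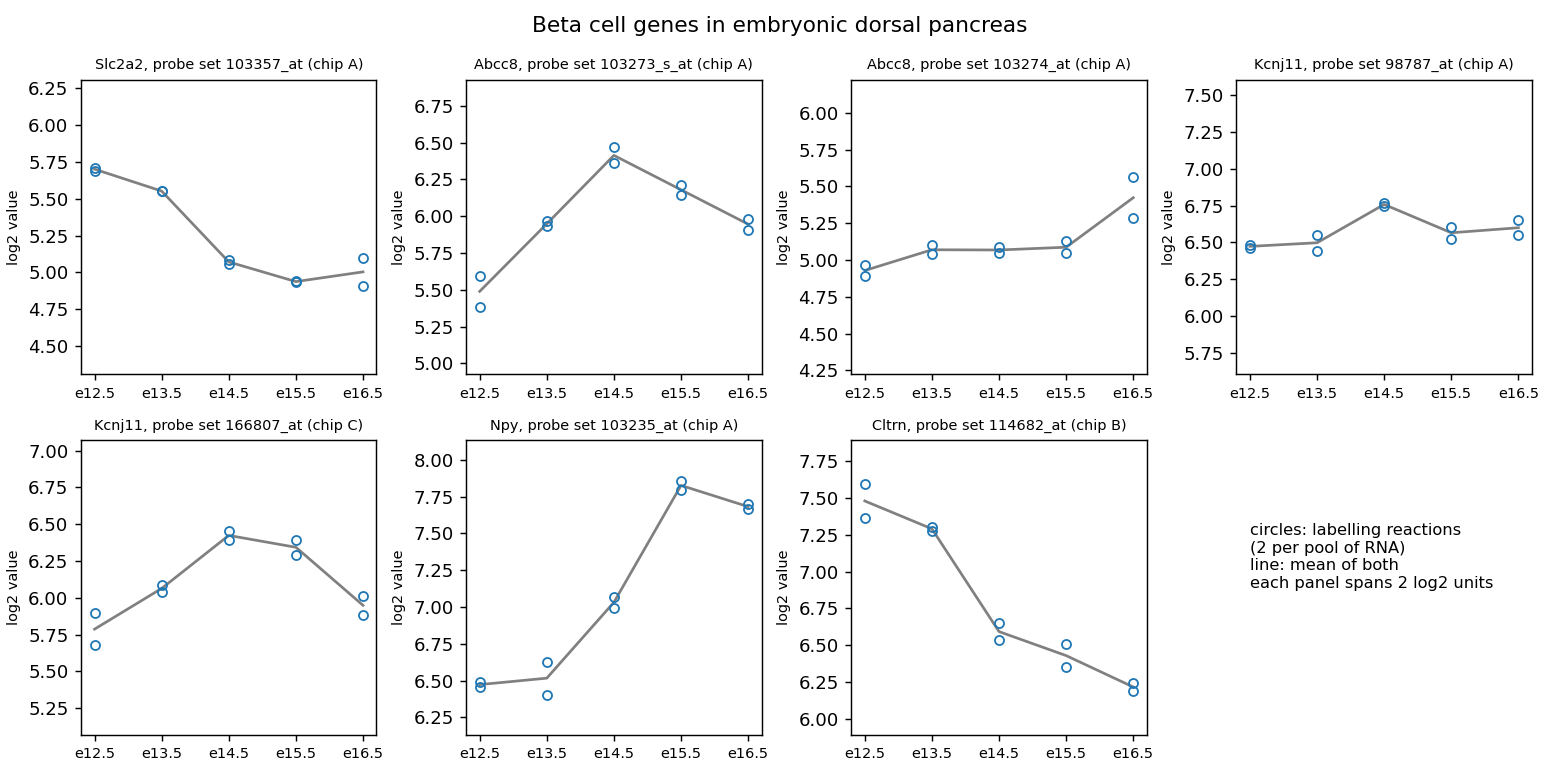
Log2 expression value (vertical axes, each spanning 2 log2 units) of the 7 probe sets of Slc2a2, Abcc8, Kcnj11, Npy and Cltrn at 5 embryonic stages (horizontal axes). Circles are the 2 labelling reactions of a pool and lines join their means, with the highest mean at e15.5 for Npy, at e12.5 for Cltrn and Slc2a2, and at e14.5 for Kcnj11 and for Abcc8 probe set 103273_s_at.

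Slc2a2 is the glucose transporter of the group and was measured by probe set 103357_at on chip A. Its log2 values were 5.71 and 5.69 at e12.5, 5.55 and 5.55 at e13.5, 5.06 and 5.09 at e14.5, 4.94 and 4.94 at e15.5, and 4.91 and 5.10 at e16.5. The arrays of e12.5 and e13.5 were all higher than those of the later stages, while the range of e16.5 met that of e14.5 and held that of e15.5. The fitted change over 4 days was -0.80 ± 0.16 (SE, n = 5 pools; limma adjusted p = 0.0162). The call did not hold when the e12.5 pool was left out (-0.71, adjusted p = 0.0966) or the e13.5 pool (-0.75, adjusted p = 0.0507). Between e16.5 and e12.5 the difference was -0.70 ± 0.07 (adjusted p = 5.83e-06 over 10 arrays), which is 1.62-fold and stays under the 2-fold minimum. The step between e13.5 and e14.5 was the largest, at -0.48 ± 0.07 (adjusted p = 0.00267). Slc2a2 lay below the median of its chip at all 5 stages, between the 37.4th percentile at e15.5 and the 49.2th at e12.5, where a change can be understated.

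Markers of hepatocytes, which also use Slc2a2, were followed over the same stages. Of 15 measured genes of the hepatocyte list, 1 rose, none fell and 14 did not pass, where 11.9% of all genes rose and 17% fell. When the e12.5 pool was left out, 2 of the list fell, but the share of all genes in that setting is not given here. The gene that rose was Alb, which encodes albumin (1.11 ± 0.21, adjusted p = 0.0132, or 0.64 with the e16.5 pool left out), and it lay below the chip median at e16.5 and at e12.5. The mean log2 value of the list was 5.37 to 5.40 at e16.5, against 5.30 to 5.31 at e12.5. The part of such cells in the course of Slc2a2 was not tested.

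The other facilitative transporters and the hexokinases, which trap glucose as its phosphate, mostly did not pass. Of 13 measured genes 2 rose and none fell, with a median change of 0.03 against 0.02 over all genes. By 1 probe set per gene, 11.9% of all 15964 genes rose and 17% fell. The fructose transporter Slc2a5 rose by 0.48 ± 0.09 on chip C (adjusted p = 0.0103), but its other probe sets did not pass (0.24 and -0.21), and leaving out the e16.5 pool gave 0.38 (adjusted p = 0.0978). Slc2a6 rose by 0.33 ± 0.10 (adjusted p = 0.0479). That call was lost when any 1 of the e12.5, e13.5, e14.5 and e16.5 pools was left out, where the adjusted p reached 0.277. It was also lost under median centring (adjusted p = 0.053), and held in 10 of 22 alternatives in all. Slc2a1, the widely used transporter Glut1, had a fitted change of -0.28 ± 0.10 (adjusted p = 0.0886) with means of 6.29 at e16.5 and 6.59 at e12.5.

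Most genes that couple glucose to insulin release did not pass. Of 18 measured genes in that list, 4 rose, 1 fell and 13 did not pass, against 11.9% of all genes that rose and 17% that fell, with a median change of -0.03. When the e13.5 or the e16.5 pool was left out, 2 rose and none fell, with no share of all genes given here for these settings. G6pc2, which encodes a glucose-6-phosphatase of islets, rose by 1.07 ± 0.15 (adjusted p = 0.00427), with means of 4.14 at e16.5 and 3.20 at e12.5, both below the chip median. Ero1b, a disulfide oxidase used in the folding of proinsulin and abundant in pancreas, rose by 4.27 ± 0.33 (adjusted p = 0.000683), while its other probe sets did not pass (0.26 and -0.07). All 13 measured genes of the acinar list rose as well, with a median of 5.44. The part of acinar cells in the course of Ero1b was not tested.

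Pcx, which encodes the mitochondrial enzyme pyruvate carboxylase, rose by 0.91 ± 0.22 (adjusted p = 0.0301). Its other probe sets did not pass (0.28 and 0.06), and neither did the one that rose without the e13.5 pool (0.87, adjusted p = 0.0803) or the e16.5 pool (0.42, adjusted p = 0.171). Gnas, an imprinted gene that encodes the stimulatory G protein alpha subunit, fell by 0.60 on the log2 scale (adjusted p = 0.0437), and its other 4 probe sets did not pass. That call ended without the e13.5, the e15.5 or the e16.5 pool (adjusted p = 0.11, 0.079 and 0.307), and when 1 of the arrays of e12.5, e14.5 or e15.5 was left out or the arrays were scaled again. In all it held in 13 of 22 alternatives, with a fitted change of -0.34 without the e16.5 pool and -0.95 without the e12.5 pool. Ldha, a lactate dehydrogenase gene that mature beta cells keep low, rose by 0.56 ± 0.13 (adjusted p = 0.0243). It is named after its value was seen.

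**Figure D2:**
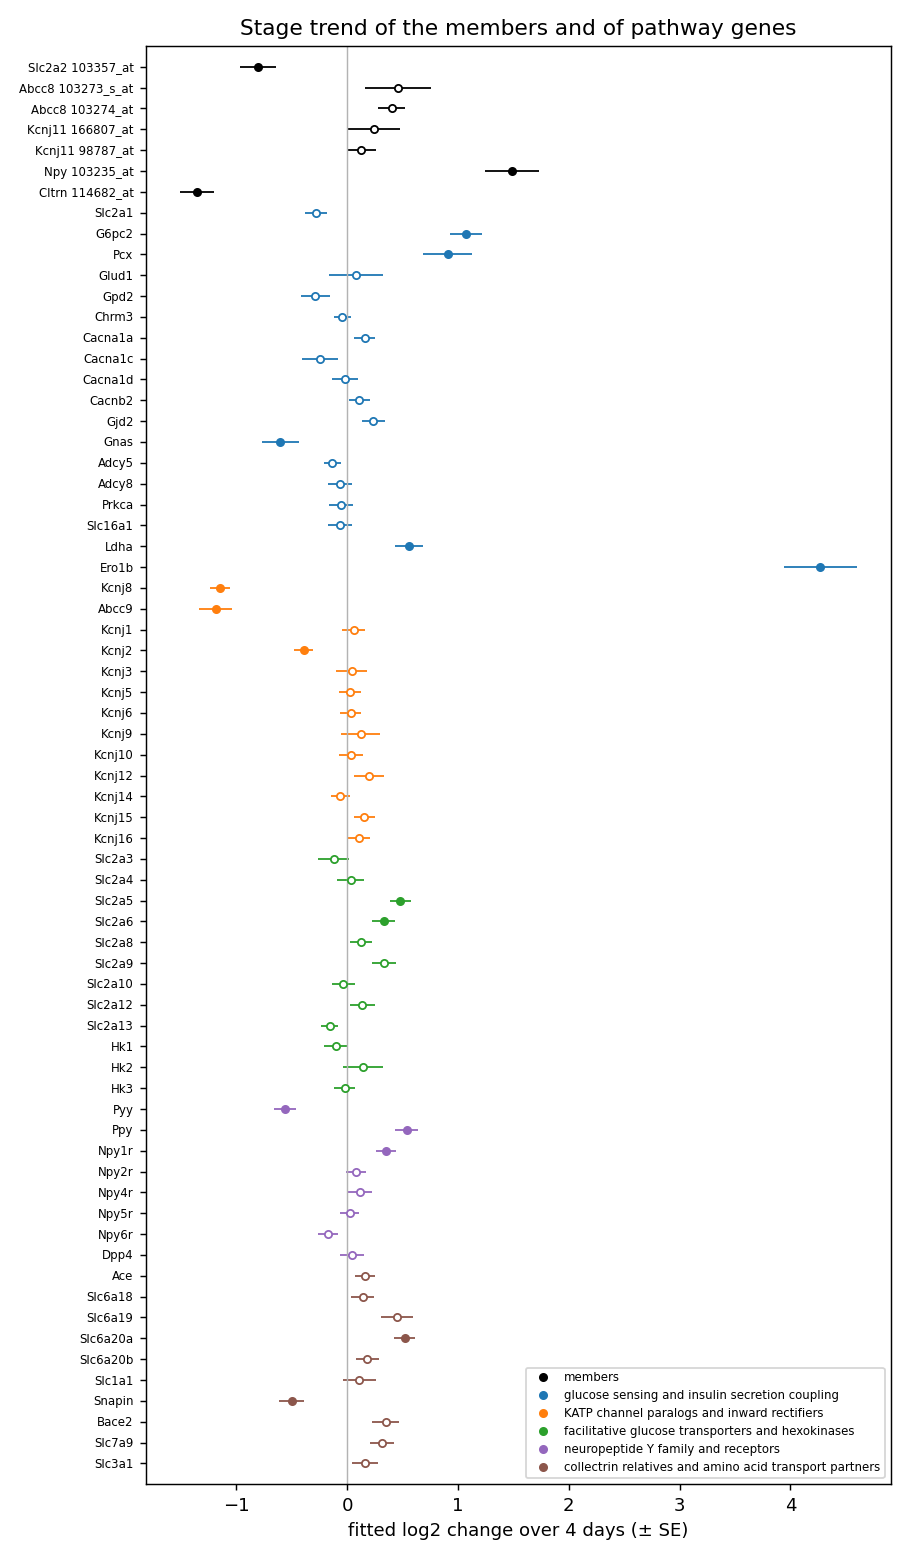
Fitted log2 change over the 4 days (horizontal axis, ± SE from 5 pools) of the 7 probe sets of the beta cell genes and of each measured gene of 5 related lists (rows, coloured by list, 1 probe set per gene). Filled points passed at an adjusted p under 0.05 and open points did not. Npy (1.49) lies right of 0, and Cltrn (-1.36) and Slc2a2 (-0.80) lie left of it, as do Kcnj8 (-1.15) and Abcc9 (-1.19).

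Of the 4 probe sets of the KATP subunit genes, 3 had their highest mean at e14.5, and the second one of Abcc8 had it at e16.5. The Abcc8 probe set 103273_s_at (chip A) had log2 values of 5.59 and 5.39 at e12.5, 5.93 and 5.96 at e13.5, 6.36 and 6.47 at e14.5, 6.14 and 6.21 at e15.5, and 5.98 and 5.91 at e16.5. The arrays of e14.5 were above all others and those of e12.5 below all others, while e13.5 and e16.5 overlapped. At e14.5 it averaged 6.41, and its level was 0.70 ± 0.07 above the mean of e12.5 and e16.5 (adjusted p = 5.95e-05), or 1.62-fold. A straight line missed this course, with a fitted change of 0.46 ± 0.30 (adjusted p = 0.3), which turned to -0.10 when the e12.5 pool was left out.

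Kcnj11, the pore subunit gene, followed a like course on chip C. Probe set 166807_at had log2 values of 5.68 and 5.89 at e12.5, 6.04 and 6.09 at e13.5, 6.39 and 6.46 at e14.5, 6.29 and 6.40 at e15.5, and 6.01 and 5.88 at e16.5. The arrays of e14.5 and e15.5 overlapped and were above all others, and those of e16.5 overlapped with e12.5. Its level at e14.5 was 0.56 ± 0.07 above the mean of both end stages (adjusted p = 0.000353), or 1.47-fold. The fitted line had a change of 0.24 ± 0.23 (adjusted p = 0.479). Leaving out the e16.5 pool gave 0.81, which passed (adjusted p = 0.0274). Leaving out the e12.5 pool gave -0.17 (adjusted p = 0.704).

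The second probe sets of both genes differed from these in part. Kcnj11 probe set 98787_at (chip A) had log2 values of 6.46 and 6.49 at e12.5, 6.44 and 6.55 at e13.5, 6.77 and 6.75 at e14.5, 6.53 and 6.61 at e15.5, and 6.55 and 6.65 at e16.5. Its arrays of e14.5 were above all others, by 0.22 ± 0.06 over the mean of both end stages (adjusted p = 0.0276), and the other stages overlapped with their neighbours in the order of levels. That difference no longer passed when either array of e14.5 was left out (0.21 with adjusted p = 0.17 and 0.23 with adjusted p = 0.141), nor without the first array of e12.5 (adjusted p = 0.0649) or of e16.5 (adjusted p = 0.0611), nor after quantile normalization was applied again (adjusted p = 0.053). Abcc8 probe set 103274_at (chip A) had log2 values of 4.97 and 4.89 at e12.5, 5.04 and 5.10 at e13.5, 5.09 and 5.05 at e14.5, 5.05 and 5.13 at e15.5, and 5.29 and 5.56 at e16.5. Here e16.5 was above all other stages and e14.5 was not, so both probe sets of Abcc8 disagree on the course. This probe set lay below the chip median at all 5 stages. Its fitted change was 0.40 ± 0.12 (adjusted p = 0.0572), and it passed without the e15.5 pool (0.48, adjusted p = 0.0347), without the first array of e12.5 (0.43, adjusted p = 0.0441) and without the first array of e15.5 (0.42, adjusted p = 0.0447).

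No probe set of the group reached the 2-fold minimum for e14.5 against the mean of both end stages, for which 0.0817% of all probe sets were called higher and 0.136% lower. At an adjusted p under 0.05 alone, 3 were higher at e14.5 than that mean, which are the Abcc8 probe set 103273_s_at and both Kcnj11 probe sets, and 2 were lower, Slc2a2 (-0.28) and Cltrn (-0.26). Neither had a dip at e14.5, since the means of both genes at that stage lay between those of e12.5 and e16.5. The share of all probe sets so called was 7.09% higher and 4.91% lower. Over the alternatives tried, the adjusted p of the Abcc8 probe set stayed at or under 0.00316 and that of Kcnj11 on chip C at or under 0.0112. With either array of e14.5 left out, which leaves that stage 1 array, the difference of Slc2a2 was -0.27 and -0.30 (adjusted p = 0.0987 and 0.0754) and that of Cltrn -0.20 and -0.31 (adjusted p = 0.293 and 0.0872). That of Cltrn was -0.20 without the first array of e12.5 (adjusted p = 0.0915) and -0.24 without the second of e16.5 (adjusted p = 0.063).

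Profiles were also compared by the root mean square difference of 5 stage means, each centred on its own mean. Between Abcc8 103273_s_at and Kcnj11 166807_at this was 0.11 log2 units, and 1 of the 11868 probe sets of chip C lay nearer to that Abcc8 profile. The Abcc8 profile differed by 0.23 from the other Kcnj11 probe set and by 0.31 from the other Abcc8 probe set, and both Kcnj11 probe sets differed by 0.18. This pair was chosen after the values were seen.

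Kcnj8 and Abcc9 encode the paralogous subunits Kir6.1 and Sur2, which form the KATP channel of vascular smooth muscle and pericytes. Kcnj8 had log2 values of 7.55 and 7.51 at e12.5, 7.39 and 7.21 at e13.5, 6.94 and 6.93 at e14.5, 6.71 and 6.62 at e15.5, and 6.40 and 6.42 at e16.5. Each stage was below the one before it with no overlap, and the gene fell by 1.15 on the log2 scale (SE 0.09, adjusted p = 0.000712). Abcc9 had log2 values of 7.08 and 6.95 at e12.5, 6.60 and 6.40 at e13.5, 6.04 and 6.13 at e14.5, 5.91 and 6.08 at e15.5, and 5.76 and 5.81 at e16.5. The values of e14.5 and e15.5 overlapped, and the other stages lay apart, from the highest at e12.5 to the lowest at e16.5. It fell by 1.19 (SE 0.15, adjusted p = 0.00177) and also on a second probe set (-1.18, adjusted p = 0.00493), while the other one had 0.46 (adjusted p = 0.07). Both calls held in all 22 alternatives. Like the beta cell pair, these genes are neighbours, on chromosome 6 (chr6:142564837-142571614 for Kcnj8 and chr6:142587862-142702766 for Abcc9).

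Among 13 measured genes of the list of KATP paralogs and other inward rectifiers, 3 fell, none rose and 10 did not pass, against 17% of all genes that fell and 11.9% that rose. Besides Kcnj8 and Abcc9, Kcnj2 fell, which encodes an inward rectifier of muscle and vessels (-0.39 ± 0.09, adjusted p = 0.0154), and its call was lost without the e12.5, the e13.5 or the e16.5 pool (adjusted p = 0.0636, 0.0507 and 0.103), while its second probe set had 0.13. Of 10 pericyte and smooth muscle genes 3 fell and none rose, against the same 17% and 11.9% of all genes. These were the growth factor receptor gene Pdgfrb (-1.19 ± 0.14), Rgs5 (-0.91 ± 0.13, with -0.66 and -0.47 on its other probe sets), a regulator of G protein signalling in pericytes, and the receptor gene Notch3 (-0.57 ± 0.10), whose call did not hold once the e12.5 pool was left out (adjusted p = 0.0831). The mean of that list was 6.20 to 6.24 at e16.5, against 6.47 to 6.52 at e12.5. The part of these cells in the courses of Kcnj8 and Abcc9 was not tested.

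**Figure D3:**
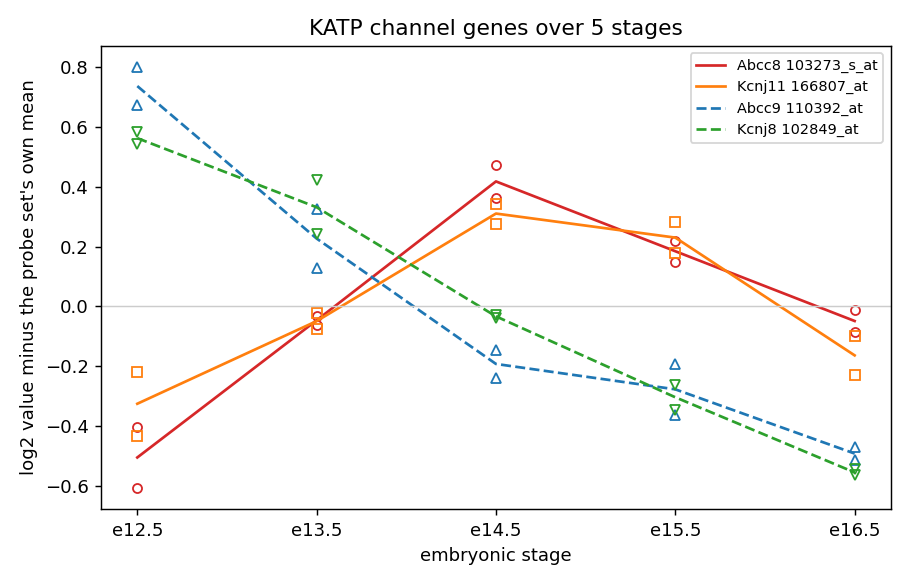
Log2 value minus the mean of the probe set over its 10 arrays (vertical axis) at 5 stages (horizontal axis) for 1 probe set each of the beta cell KATP subunit genes Abcc8 and Kcnj11 (solid lines) and of their vascular paralogs Abcc9 and Kcnj8 (dashed lines). Symbols are labelling reactions and lines join stage means. The Abcc8 and Kcnj11 probe sets drawn are highest at e14.5, and those of Kcnj8 and Abcc9 are highest at e12.5 and lowest at e16.5; the second Abcc8 probe set, highest at e16.5, and the Abcc9 probe set with a change of 0.46 are not drawn.

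The transcription factors of the endocrine lineage were set beside the KATP genes, since many of them act in the same days. Of 12 measured factors 8 (66.7%) had their highest pool mean at e14.5, against 11.3% of all genes. At an adjusted p under 0.05 alone, 10 of 12 were above the mean of both end stages at e14.5, against 9.06% of all genes. Of these 10, Rfx3 and Isl1 had their highest mean at e12.5. Only Nkx2-2 (1.20) and the endocrine progenitor factor Neurog3 (1.17) reached 2-fold, and the difference was 0.77 for Neurod1, 0.64 for Pdx1 and 0.60 for Pax6. In the stage trend 1 of these 12 rose and 2 fell, where 11.9% of all genes rose and 17% fell. Of the 12 factors, 4 fell when the e12.5 pool was left out, a setting for which no share of all genes is given here. Rfx3 fell by 1.33 on the log2 scale (adjusted p = 0.000892). Isl1 fell by 0.94 (adjusted p = 0.00686) on 1 of its 2 probe sets, but not with the e16.5 pool left out (adjusted p = 0.056). Hnf4a rose by 0.67 (adjusted p = 0.0154) on 1 of its 2 probe sets, but did not pass with the e12.5 pool left out (adjusted p = 0.135). Glud1, the glutamate dehydrogenase gene of the coupling list, was also higher at e14.5 than the mean of both ends, by 0.45 (adjusted p = 0.000736), and is named after its value was seen.

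**Figure D4:**
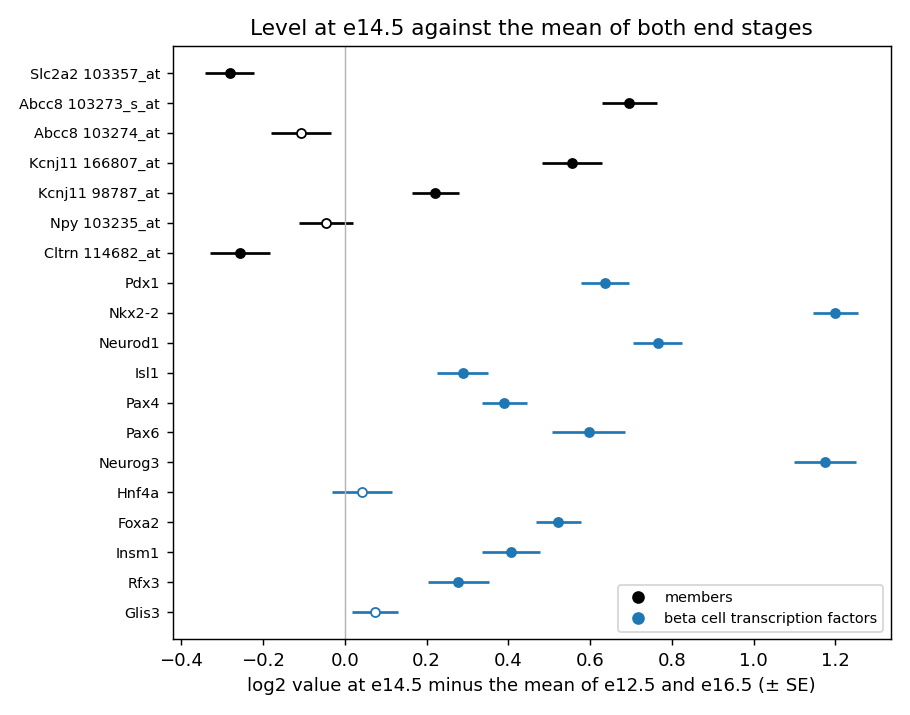
Difference between the log2 value at e14.5 and the mean of e12.5 and e16.5 (horizontal axis, ± SE from the fit over 10 arrays) for the 7 probe sets of the beta cell genes (black) and 12 transcription factors of the endocrine lineage (blue). Filled points have an adjusted p under 0.05 and open points do not. The factors range widely, from 0.04 for Hnf4a to 1.20 for Nkx2-2. Abcc8 103273_s_at (0.70), Kcnj11 166807_at (0.56) and Kcnj11 98787_at (0.22) lie within that range. The other probe sets of the group, among them Abcc8 103274_at (-0.11), lie below it.

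Npy, the peptide gene, was measured by probe set 103235_at on chip A. Its log2 values were 6.45 and 6.49 at e12.5, 6.63 and 6.40 at e13.5, 6.99 and 7.07 at e14.5, 7.86 and 7.79 at e15.5, and 7.67 and 7.70 at e16.5. The first pair of stages overlapped, e14.5 lay between, and e15.5 was above e16.5 with no overlap. The fitted change was 1.49 ± 0.24 (adjusted p = 0.00788). At e16.5 the mean was 7.68, against 6.47 at e12.5, a difference of 1.21 ± 0.08 (adjusted p = 1.2e-07), or 2.31-fold. Most of the change lay in the step between e14.5 and e15.5 (0.79 ± 0.08, adjusted p = 4.76e-05) and in that between e13.5 and e14.5 (0.52 ± 0.08, adjusted p = 0.00319). The last step, e16.5 against e15.5, was -0.14 ± 0.08 (adjusted p = 0.212).

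Relatives and receptors of neuropeptide Y mostly did not pass. Of 8 measured genes of that family 2 rose, 1 fell and 5 did not pass, where 11.9% of all genes rose and 17% fell. The gut and islet peptide gene Pyy fell by 0.56 on the log2 scale (adjusted p = 0.00694). Pancreatic polypeptide, Ppy, rose by 0.54 ± 0.10 (adjusted p = 0.0133), and by 0.89 on its second probe set (adjusted p = 0.0309). The call of Pyy and the first of Ppy were lost when the e16.5 pool was left out (adjusted p = 0.0875 for Pyy and 0.0627 for Ppy). That of Pyy was also lost after quantile normalization was applied again (adjusted p = 0.0542). The receptor gene Npy1r rose by 0.35 ± 0.09 (adjusted p = 0.0358) from below the chip median, while its other 2 probe sets did not pass (0.00 and 0.05). Its call was lost without any 1 of the e12.5, e13.5, e14.5 and e16.5 pools, where the adjusted p reached 0.186. It was also lost after quantile normalization was applied again (adjusted p = 0.0545), and held in 13 of 21 alternatives in all.

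Genes of neurons and neural crest, in which Npy is also used, fell or did not pass, with 1 exception. Of 18 measured genes 8 fell, 9 did not pass and the receptor gene Ret rose (0.68 ± 0.19, adjusted p = 0.044), a call lost when the e12.5, the e13.5 or the e14.5 pool was left out. Over all genes 17% fell and 11.9% rose, and the median change of the list was -0.28, against 0.02. The growth cone gene Gap43 fell by 2.04, the neurofilament gene Nefm by 1.81, the endothelin receptor gene Ednrb by 1.75 and the tubulin-binding gene Stmn2 by 1.41 on the log2 scale, each on its brightest probe set. The other probe sets had -1.59 and -0.01 for Nefm, -0.51 for Ednrb (adjusted p = 0.071), and -0.70 and 0.35 for Stmn2. Th, which marks catecholamine neurons and some early islet cells, had a change of 0.05 ± 0.10 (adjusted p = 0.751). The mean of the list was 5.58 to 5.63 at e16.5, against 6.07 to 6.12 at e12.5. The part of neurons and neural crest in the course of Npy was not tested.

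Islet hormone genes were measured beside Npy. Of 7 genes 4 rose and 2 fell, where 11.9% of all genes rose and 17% fell. Ins2, which encodes insulin, rose by 7.53 ± 0.87, and by 0.85 on its second probe set, the amylin gene Iapp by 4.02 ± 0.28 and the somatostatin gene Sst by 3.48 ± 0.40. Gcg, which encodes glucagon, fell by 0.97 on the log2 scale (adjusted p = 0.0138), but did not pass once the e16.5 pool was left out (adjusted p = 0.0975). Its change was -1.53 on the second probe set, -1.70 after quantile normalization was applied again and -1.46 without the e12.5 pool. The mean of the list was 9.58 to 9.60 at e16.5, against 7.61 to 7.67 at e12.5. Which cell type carries the Npy transcript, in the islets or outside them, was not tested.

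Cltrn, the collectrin gene, was measured by probe set 114682_at on chip B. Its log2 values were 7.59 and 7.37 at e12.5, 7.30 and 7.28 at e13.5, 6.53 and 6.65 at e14.5, 6.35 and 6.51 at e15.5, and 6.19 and 6.24 at e16.5. No stage overlapped with the next, and each was below the one before it. The fitted change was -1.36 ± 0.15 (adjusted p = 0.00109). At e16.5 the mean was 6.22, against 7.48 at e12.5, a difference of -1.26 ± 0.08 (adjusted p = 9.68e-09), or 2.40-fold. The step between e13.5 and e14.5 was the largest, at -0.70 ± 0.08 (adjusted p = 0.000189). The calls of Cltrn and Npy held in all 22 alternatives of the stage trend and all 18 of e16.5 against e12.5.

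Proteins related to collectrin or working with it mostly did not pass. Of 10 measured genes 1 rose, 1 fell and 8 did not pass, where 11.9% of all genes rose and 17% fell, with a median change of 0.17. The amino acid transporter gene Slc6a20a rose by 0.52 ± 0.10 (adjusted p = 0.00833) from below the chip median, while its second probe set had -0.01. Snapin, a protein of vesicle fusion that binds collectrin, fell by 0.50 on the log2 scale (adjusted p = 0.0209). Neither passed when the e16.5 pool was left out (adjusted p = 0.0971 for Slc6a20a and 0.113 for Snapin), and Snapin also not without the e13.5 pool (0.0636).

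In single daily steps no probe set of the group reached 2-fold with an adjusted p under 0.05. At that size, e13.5 against e12.5 had 0.079% of all probe sets higher and 0.049% lower, e14.5 against e13.5 had 0.106% and 0.0245%, e15.5 against e14.5 had 0.294% and 0.0708%, and e16.5 against e15.5 had 0.215% and 0.114%. The share of all probe sets at an unadjusted p under 0.05 was not taken, so counts at that p have no background. There the 4 steps in this order had 3, 6, 3 and 4 of the 7 probe sets. At an adjusted p alone, the step between e13.5 and e14.5 held most of them, with 3 higher (Npy, Abcc8 103273_s_at and Kcnj11 166807_at) and 2 lower (Slc2a2 and Cltrn), where 1.35% of all probe sets were higher and 1.81% lower. For Abcc8 this step was 0.46 ± 0.08 (adjusted p = 0.00693), and for Kcnj11 0.36 ± 0.08 (adjusted p = 0.0375).

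Leaving out single arrays gave steps of about the same size, while 3 of the 5 no longer passed in some of these cases, where 1 array was left at a stage. The step of Kcnj11 was 0.33 to 0.39 without any 1 of the arrays of e13.5 or e14.5 (adjusted p up to 0.239), and its adjusted p was 0.102 with adjustment within chip C alone. That of Abcc8 was 0.45 without the first array of e13.5 (adjusted p = 0.0763) and 0.41 without the second of e14.5 (adjusted p = 0.0891). That of Npy was 0.48 without the second of e14.5 (adjusted p = 0.0513). The steps of Slc2a2 and Cltrn passed in each of these cases. In the other steps, 1 probe set was higher at e13.5 than at e12.5, Abcc8 103273_s_at (0.46, where 5.59% of all probe sets were higher and 5.64% lower), and 1 was higher at e15.5 than at e14.5, Npy (where 4.94% were higher and 5.74% lower). At e16.5 against e15.5, Abcc8 103274_at was higher (0.34, adjusted p = 0.0162) and Kcnj11 166807_at lower (-0.39, adjusted p = 0.00537), where 8.31% of all probe sets were higher and 12.2% lower. That of Abcc8 was 0.30 without the first array of e15.5 (adjusted p = 0.103) and 0.20 without the second of e16.5 (adjusted p = 0.113), and that of Kcnj11 was -0.34 without the second of e15.5 (adjusted p = 0.0515).

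The genes with the most similar stage profile on the same chip were named for Npy and Cltrn, the members whose stage means span at least 1 log2 unit. For Npy, of 10828 probe sets compared, these were Pdlim1 (a cytoskeletal adaptor gene) at a root mean square difference of 0.02, the glutamine transporter gene Slc1a5 at 0.06 and the mitochondrial protease gene Htra2 at 0.08 log2 units. Like Npy, Pdlim1 was higher at e15.5 (8.56) than at e16.5 (8.40) and lowest at e12.5 (7.25). For Cltrn, of 10580 probe sets, these were the transcription factor genes Maf at 0.06 and Osr1 at 0.08, and Ppp1r12a, a myosin phosphatase subunit gene, at 0.08. Maf averaged 6.61 at e16.5, against 7.85 at e12.5. Within 0.2 log2 units lay 69 probe sets for Npy and 254 for Cltrn. These likenesses rest on 5 stages and are a description.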

How the data were processed

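Expression was measured on 30 arrays of dorsal pancreas RNA, with groups taken from the labels. The authors deposited log2 values, which the submitters' processing notes give as RMA output. The log base was inferred from their range, and software version and background level are not given in the sources used here. RMA evens out array brightness, and each chip was treated as normalized alone. Probe sets were named from the platform annotation, updated to RefSeq GRCm38.p6; of 36701 probe sets 29131 had 1 symbol, 724 several and 6846 none here. A gene was represented by its brightest probe set. The suffixes _s_at and _f_at mark probes that can match several transcripts or a gene family, among them Abcc8 103273_s_at.

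The log2 values were tested with limma (version 3.58.1, R 4.3.3), with p-values adjusted over the 3 chips together. The stage trend fits a line through 5 pool means, its slope times 4 days. Other comparisons fit stage as a factor over the 10 arrays of a chip, where p-values measure labelling spread only. Up to 4 passing genes per list were named by largest slope. Members and lists were chosen with earlier results of these data known. The functions were tested on simulated data. Same-numbered reactions did not deviate together (1 of 30 correlations above 0.1), so reactions were not paired. Alternatives were other scalings, a brightness filter, an intensity trend, adjustment within chips, other fold minimums, a line over 10 arrays, a replicate block, and each array or pool left out. The number of arrays limits the precision.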

Additional observations from a re-analysis of the deposited data

How the results depend on the processing

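Over all alternatives, 855 values of the probe sets of the group kept their direction and side of the threshold, 28 came to pass, 2 no longer passed and 11 changed sign. In comparisons of stages that threshold includes the 2-fold minimum, so a difference reported at an adjusted p alone could not be counted as lost. Losses of that kind are given above, beside the e14.5 comparison and the daily steps. The trend count of risers was 2 in place of 1 under median centring, the line over 10 arrays, the replicate block over 10 arrays (where Abcc8 103274_at passed with 0.40, adjusted p = 0.00904), without the e15.5 pool and without the e16.5 pool, and ranged from 1 to 2 when single arrays were left out. The count of fallers was 1 in place of 2 with bright probe sets only, which removes Slc2a2, and without the e12.5 or the e13.5 pool. The replicate block is a fit over 10 arrays, which treats reactions of a pool as separate samples, as the line does. At a minimum of 1.5-fold, 2 were lower at e16.5 than at e12.5, and 1 was higher and 1 lower in the daily steps. At that minimum 1 was higher at e14.5 than the mean of both ends. With no fold minimum, 3 were higher and 2 lower at e16.5, and 6 higher and 3 lower in the steps. At e14.5, 3 were then higher and 2 lower. For that setting 26.4% of all probe sets were higher and 23.4% lower at e16.5, and 7.09% and 4.91% at e14.5. Shares for the steps stand with the daily steps above, and none is given here for 1.5-fold. The values that changed sign did not pass in either direction. When single arrays were left out, the ranges were -0.0677 to 0.1551 for Npy and -0.0312 to 0.0805 for Kcnj11 98787_at at e13.5 against e12.5, -0.0325 to 0.0295 for Abcc8 103274_at at e14.5 against e13.5 (0.0037 under median centring), -0.0212 to 0.0588 for Abcc8 103274_at at e15.5 against e14.5, and -0.031 to 0.1632 for Slc2a2 and -0.0177 to 0.0861 for Kcnj11 98787_at at e16.5 against e15.5. Without the e12.5 pool the trends were -0.0962 for Abcc8 103273_s_at and -0.1698 for Kcnj11 166807_at. Apart from the settings that remove samples or probe sets, the cause was not tested. Of the values of named list genes, 871 kept their call and 65 lost it, and of the counts of the gene lists 447 stayed within 1.5 times and 81 did not. Signal over background is unknown, which limits what dim probe sets such as Slc2a2, G6pc2 and Abcc8 103274_at can show. Genes of retina, germ cells and mammary gland give the size of trends among genes of other tissues. Not all were dim, since Tnp1 and Prm1 lay above the chip median at e12.5 and e16.5. Of 18 measured genes 4 rose, where 11.9% of all genes rose and 17% fell. These 4 rose from below the chip median (Zp3 1.36, Pde6b 0.48, Zp1 0.41 and Prm2 0.33). None rose with the e16.5 pool left out, where the share of all genes is not given here. The call of Prm2 held in 9 of 21 alternatives, and its other probe sets had 0.04, -0.05, -0.04 and -0.295, the last of which fell (adjusted p = 0.0274).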
